A study of Mus musculus with 13 samples.

Results

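Junctions of a fixed DNA break were compared between activated mouse splenic B cells whose bait break lay at the immunoglobulin heavy chain locus (IgH) on chromosome 12 and B cells whose bait lay at c-myc on chromosome 15. The comparison takes all junctions of 6 of the 13 libraries of the study, namely IgH B-cell replicates 19, 21 and 23, of genotype IgH2-28xI, and c-myc B-cell replicates 14, 36 and 37, of genotype c-myc25-2xI. Both genotypes carry recognition sites of the nuclease I-SceI at a bait and at a partner site of the same chromosome, and the study asked how often breaks far apart on 1 chromosome join. Activation in all 6 was by anti-CD40 with IL-4, per the labels, which give neither the age or number of mice nor the way I-SceI was supplied. The method, high-throughput genome-wide translocation sequencing, reads from the bait across the junction into the joined sequence, called the prey, and each line of the deposited tables was taken as 1 junction.

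The IgH libraries held 933, 1115 and 483 junctions and the c-myc libraries 2918, 2850 and 878, or 9177 of 16455 in the series. IgH replicates 19 and 21 came from 1 flow cell and replicate 23 from another, while each c-myc library had its own, so that sequencing run and bait cannot be told apart. Median read length was 183 to 251 bases with the IgH bait and 205 to 272 with the c-myc bait. Outside chromosomes 12 and 15, GG closed 81.5% of the preys of c-myc replicate 14, while 5.56 to 15.1% of such preys did so in the remaining 5 libraries, and the median prey alignment of that library was 49 bases against 77 to 130. The part of these differences in the results was not tested. The tables hold DNA junctions and no expression, so that the B-cell label could be looked at only through the switch regions.

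In B cells stimulated by CD40 ligation and IL-4, the enzyme AID deaminates cytosines in switch regions, the repeated sequences ahead of each heavy chain constant gene, and breaks in S mu are joined to breaks in S gamma 1 or S epsilon. This deletes the DNA between them and switches the antibody class to IgG1 or IgE. The motif AGCT is a preferred target of AID and is dense in S mu. AID also acts on some other transcribed genes, and joins of c-myc to IgH switch regions are known from plasmacytomas of mice and from Burkitt lymphoma.

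The sequences below show what each bait joined: 60 bases of prey from the junction outward, 5′ to 3′ as read into the prey, as the deposited tables give them on mm9. They were taken from the junction nearest the median position of each label, and capitals mark AGCT, which reads the same on both strands. The first 6 lines are switch region preys.
S mu with the c-myc bait, chr12:114663341-114663400, - strand: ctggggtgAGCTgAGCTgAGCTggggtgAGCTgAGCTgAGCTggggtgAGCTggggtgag
S mu labelled trans with the IgH bait, chr12:114663547-114663606, + strand: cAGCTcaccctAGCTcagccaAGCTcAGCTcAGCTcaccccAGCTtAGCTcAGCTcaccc
S gamma 1 with the c-myc bait, chr12:114574579-114574638, + strand: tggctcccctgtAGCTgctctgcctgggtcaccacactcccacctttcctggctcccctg
S gamma 3 with the IgH bait, chr12:114602847-114602906, - strand: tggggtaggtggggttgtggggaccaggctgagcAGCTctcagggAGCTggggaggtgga
S epsilon with the c-myc bait, chr12:114514053-114514112, - strand: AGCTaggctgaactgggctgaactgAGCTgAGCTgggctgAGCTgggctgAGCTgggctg
S epsilon with the IgH bait, chr12:114514508-114514567, + strand: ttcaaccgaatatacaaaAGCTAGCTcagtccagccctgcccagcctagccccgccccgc
The next 4 come from genes outside IgH that the c-myc bait reached and that the list of AID off-targets holds.
Ly6e, chr15:74787429-74787488, + strand: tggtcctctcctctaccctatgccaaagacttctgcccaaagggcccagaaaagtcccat
Cd83, chr13:43881983-43882042, + strand: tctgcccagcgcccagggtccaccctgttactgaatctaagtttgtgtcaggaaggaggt
Pim1, chr17:29631304-29631363, - strand: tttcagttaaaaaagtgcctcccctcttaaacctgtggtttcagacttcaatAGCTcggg
Il4ra, chr7:132697395-132697454, - strand: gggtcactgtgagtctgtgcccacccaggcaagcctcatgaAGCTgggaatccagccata
Of these, S mu with the IgH bait held 8 copies of AGCT and S mu with the c-myc bait 7, while S gamma 1 held 1 and Ly6e and Cd83 held 0.

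The IgH bait stayed on its own chromosome more often than the c-myc bait. Chromosome 12 held 91.9%, 93.3% and 92.5% of junctions in IgH replicates 19, 21 and 23, and chromosome 15 held 89.0%, 79.8% and 80.5% in c-myc replicates 14, 36 and 37. Every IgH library lay above every c-myc library, and c-myc replicate 14 was nearest to them. The means were 92.6% ± 0.710 (SD, n = 3) and 83.1% ± 5.11 (SD, n = 3), 9.44 points apart (two-sided exact permutation p = 0.1, adjusted p = 0.156). With 3 against 3 libraries 0.1 is the smallest p possible, so that none of these exact tests could pass 0.05, and 14 measures of location were adjusted together. The share counts chromosomes and not alleles: a junction on the other copy of chromosome 12 counts as on the bait chromosome. With 1 junction per position and strand of a library the means were 91.0% and 79.1%. Without switch-labelled junctions, an alternative chosen after seeing the data, they were 91.7% and 86.8%, so that the difference was 4.89 points, still without overlap.

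The partner break took a larger share of junctions with the IgH bait. The tables label 581 junctions of the IgH libraries as the 2x cassette, at a median position of 114664515, next to the partner peak at 114664493 of chromosome 12. This peak was 87.5 kb telomeric of the bait peak at 114577038, and at c-myc the peaks lay 95.9 kb apart, at 61818880 and 61914760 of chromosome 15. Within 10 kb of the partner peak lay 42.7%, 36.7% and 41.2% of junctions with the IgH bait and 22.1%, 23.5% and 24.3% with the c-myc bait. The groups did not overlap, with a difference of 16.9 points (exact permutation p = 0.1, adjusted p = 0.156). The bait windows held 39.1%, 43.6% and 41.4% with the IgH bait and 57.4%, 45.4% and 46.4% with the c-myc bait, a difference of -8.34 points (exact permutation p = 0.1, adjusted p = 0.156). Without c-myc replicate 14 it was -4.49 points, still without overlap. Counting each position and strand once gave -4.80 points, windows of 5 kb gave -12.8, and the libraries overlapped once windows reached 20 kb. They also overlapped when IgH distances were counted from the edge of the 8.15 kb stretch described below, an alternative chosen after seeing the data. The means were then 43.5% and 49.7%, a difference of -6.16 points (exact permutation p = 0.2).

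**Figure D1:**
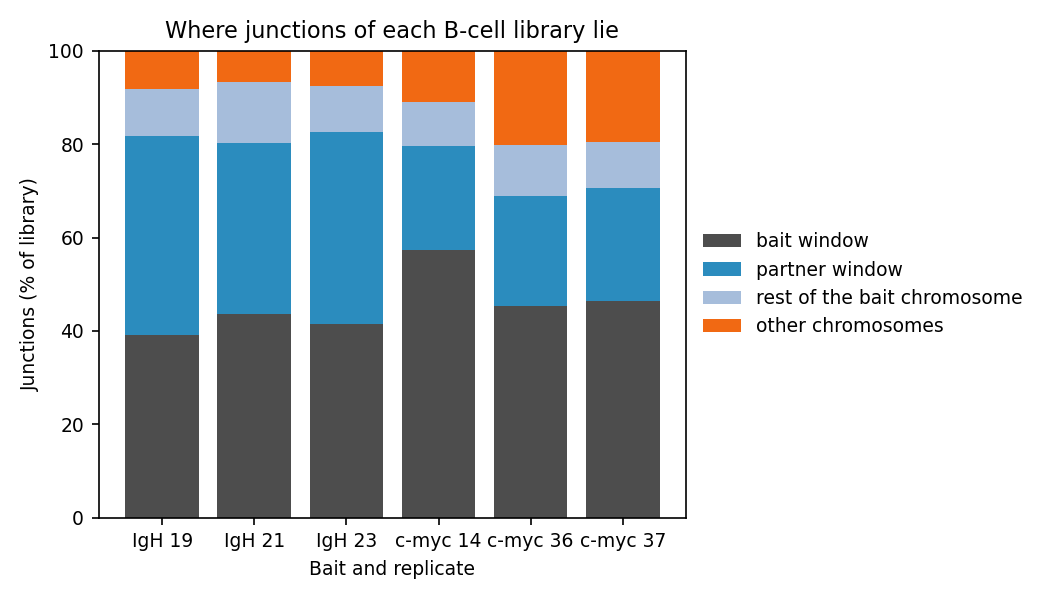
Junctions of each B-cell library by location, in percent of the library: within 10 kb of the bait peak, within 10 kb of the partner peak, elsewhere on the bait chromosome, and on other chromosomes. Partner windows take 36.7 to 42.7% in the 3 IgH libraries and 22.1 to 24.3% in the 3 c-myc libraries.

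Outside both windows, the same-chromosome share was larger with the IgH bait, but not once switch region junctions were left out. Of these junctions 55.3%, 65.9% and 57.1% lay on chromosome 12 with the IgH bait, and 46.2%, 35.1% and 33.7% lay on chromosome 15 with the c-myc bait. The groups did not overlap (difference of 21.1 points, exact permutation p = 0.1, adjusted p = 0.156). The IgH bait sits among switch regions and the c-myc bait reaches them on another chromosome, so both sides of this comparison move with them. Without junctions that carry a switch region label, an alternative chosen after seeing the data, the means were 46.4% and 45.1%, 1.32 points apart with overlapping libraries (exact permutation p = 0.8).

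At over 3 Mb from the bait, the baits overlapped in how often they stayed on their chromosome, but not at over 10 Mb. Only junctions over 3 Mb away and those on other chromosomes were taken, with 3 Mb around the bait peak of the other locus left out. For the c-myc bait this leaves out the IgH locus, with 49, 145 and 61 junctions within 1 Mb of the IgH bait peak. The same-chromosome share was 14.6%, 17.0% and 10% with the IgH bait (13 of 89, 15 of 88 and 4 of 40 junctions). With the c-myc bait it was 18.1%, 16.5% and 17.9% (60 of 331, 85 of 515 and 24 of 134 junctions). IgH replicate 21 lay within the range of the c-myc libraries and the other IgH libraries below it, and the difference was -3.63 points (exact permutation p = 0.2, adjusted p = 0.28). With a cutoff of 10 Mb the means were 7.91% and 14.1%, without overlap (exact permutation p = 0.1). With preys aligned over at least 50 bases the difference was -6.13 points, also without overlap. It was -5.21 without IgH replicate 21 and -4.13 without c-myc replicate 36, again without overlap, while the libraries overlapped under the remaining alternatives. At these counts the IgH shares are imprecise, and c-myc lies inside its chromosome while IgH lies near the telomeric end of chromosome 12.

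Beyond 10 Mb the bait chromosome still took more junctions than a typical other chromosome in every library. With the IgH bait it held 5, 8 and 3 junctions there, against a median of 4, 3 and 1.5 per other chromosome. With the c-myc bait it held 43, 69 and 19, against a median of 13.5, 22 and 5. The ratios were 1.25, 2.67 and 2.00 for IgH and 3.19, 3.14 and 3.8 for c-myc. The fullest other chromosome held 7, 10 and 8 junctions with the IgH bait, more than the bait chromosome in each library. With the c-myc bait it held 28, 43 and 13, fewer than the bait chromosome in each. The ratios are not scaled for chromosome length, and for IgH they cover the centromeric side almost alone.

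Near the break, both baits showed a similar asymmetry. A + strand prey runs toward higher coordinates, away from the centromere of a mouse chromosome. For the c-myc bait, 10 kb to either side of the peak were taken. For the IgH bait the centromeric 10 kb started at the far edge of the 8.15 kb stretch described below. That stretch was left out, so that the ranges of the baits are not alike. In both groups most junctions in these ranges were on the telomeric flank and on the + strand, so that the prey continued away from the break. This class took 79.7%, 77.5% and 71.2% of those junctions with the IgH bait and 78.4%, 71.5% and 73.1% with the c-myc bait. The ranges overlapped, with means of 76.1% ± 4.41 (SD, n = 3) and 74.3% ± 3.58 (SD, n = 3). The mirror class, centromeric and on the - strand, took 16.5% ± 4.60 (SD, n = 3) and 18.0% ± 1.97 (SD, n = 3), and the ratio of both classes was 4.90 ± 1.56 (SD, n = 3) and 4.18 ± 0.696 (SD, n = 3).

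Junctions on that telomeric flank lay closer to the IgH break than to the c-myc break. The median distance was 577, 499 and 637.5 bp with the IgH bait and 814, 678.5 and 650 bp with the c-myc bait. These values did not overlap, but IgH replicate 23 and c-myc replicate 37 were close together, and no test was run. The first 200 bp held 29.7%, 29.3% and 19.9% of the flank with the IgH bait and 1.60%, 9.98% and 15.3% with the c-myc bait. From 50 to 150 bp the c-myc flank was nearly empty: its cumulative share went from 0.228 to 0.228%, 2.90 to 3.22% and 6.84 to 9.12%. With the IgH bait it went from 17.2 to 26.7%, 16.2 to 24.9% and 10.3 to 18.5%. The part of this stretch in the median distances was not tested. The first 1 kb held nearly equal shares, 66.5% ± 1.71 (SD, n = 3) and 63.9% ± 1.99 (SD, n = 3), so that the groups parted near the edge and again in the tail. In the tail, the distance that held 90% of the flank was 2108 ± 170 bp (SD, n = 3) and 3181 ± 431 bp (SD, n = 3). The c-myc value within 200 bp was lowest in replicate 14, the library with the short prey alignments, and the part of alignment length was not tested.

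**Figure D2:**
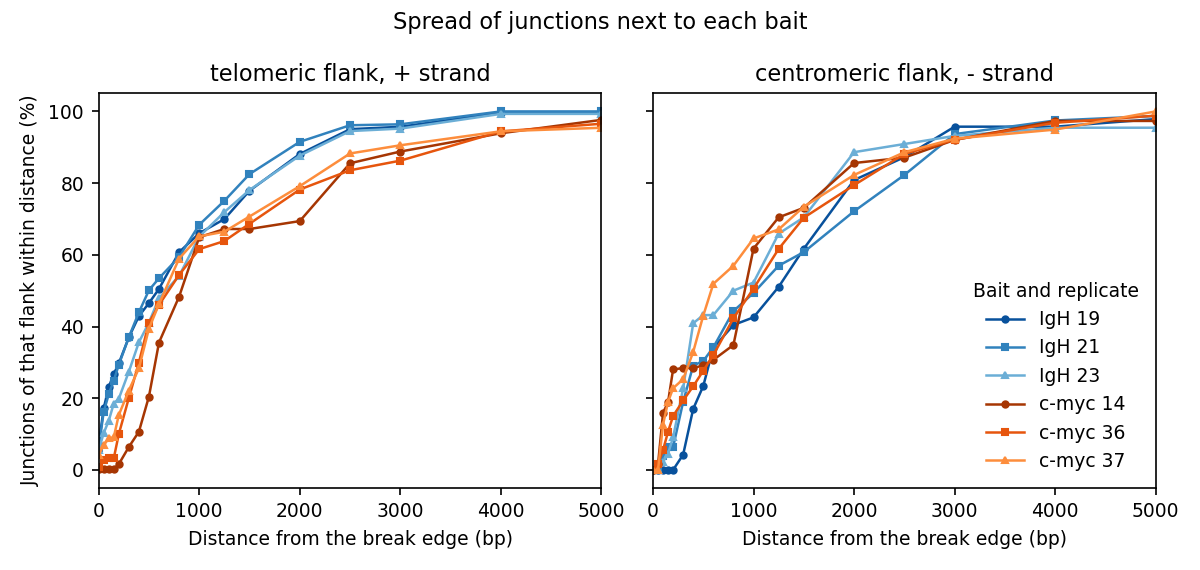
Cumulative percent of junctions of each flank (y axis) against the distance from the edge of the break in bp (x axis), for telomeric junctions on the + strand and centromeric junctions on the - strand, 1 line per B-cell library. Centromeric distances of the IgH bait start at the far edge of the 8.15 kb stretch, and those of the c-myc bait at its peak. On the telomeric flank the IgH libraries hold 19.9 to 29.7% within 200 bp and the c-myc libraries 1.60 to 15.3%, while at 1 kb all 6 lie close together.

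On the centromeric side the IgH bait flank started 8.15 kb from the peak. In chr12:114568888-114577037, which covers S gamma 1, the IgH libraries held 26 junctions and the c-myc libraries 106. The matching stretch next to the partner break, chr12:114661019-114663804 in S mu, held 25 junctions with the IgH bait and 80 with the c-myc bait in 2.79 kb. Distances on the IgH flank were counted from the far edge of the S gamma 1 stretch, and those of the c-myc bait from its peak. The edge was set from the IgH junctions of both strands themselves, apart from those next to the peak. It was the highest position of a centromeric junction without a switch label, or of an S gamma 1 junction close by. There the median distance of - strand junctions was 1212, 1004 and 824.5 bp with the IgH bait and 963.5, 968 and 553 bp with the c-myc bait, which overlapped. The first 200 bp of this flank held 0%, 6.33% and 9.09% with the IgH bait and 28.0%, 15.02% and 22.8% with the c-myc bait, the reverse of the order on the telomeric flank and without overlap. These IgH shares depend on where the edge was placed, so that they do not compare the baits at like distances from a break. Whether these stretches are absent from the bait allele cannot be read from the tables. An offset between the mm9 coordinates of both sets of tables was looked for with shared 24-base words: it was 0 bp for 96.5% of 2184 words below the partner peak and 1 bp for 98.2% of 658 words from 3 kb below that peak upward.

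From the break outward, the IgH bait's junctions on its chromosome were concentrated within 100 kb and those of the c-myc bait spread farther. Of bait chromosome junctions outside both windows, 70.2%, 75.9% and 81.3% lay 10 to 100 kb from the IgH bait, and 36.2%, 24.4% and 32.2% from the c-myc bait. This bin covers the constant region switch regions at IgH. Without switch-labelled junctions the IgH mean of 75.8% ± 5.52 (SD, n = 3) was 59.3%, against 31.0% ± 5.99 (SD, n = 3) at c-myc, still without overlap. The bin also holds the part of the IgH flank that the 8.15 kb stretch moves past the 10 kb window. With distances from the edge of that stretch, an alternative chosen after seeing the data, the IgH mean was 70.2%, without overlap. Both changes together were not run. From 100 kb to 1 Mb the means were 8.37% ± 0.122 (SD, n = 3) and 36.1% ± 1.96 (SD, n = 3), and beyond 10 Mb they were 5.70% ± 0.490 (SD, n = 3) and 19.9% ± 3.72 (SD, n = 3). Without switch-labelled junctions, which fill the denominator at IgH, the IgH means were 14.4% and 9.86%. The libraries did not overlap in these 3 bins, with or without those junctions (exact permutation p = 0.1, adjusted p = 0.156 in each). From 1 to 10 Mb they did, at 10.2% ± 5.90 (SD, n = 3) and 13.1% ± 1.84 (SD, n = 3), with an exact permutation p of 0.5 (adjusted p = 0.583). That difference, -2.94 points, was 3.36 points without switch-labelled junctions and 0.0552 without IgH replicate 23, so that it has no direction. At c-myc, the bin from 100 kb to 1 Mb includes the outer flank of the partner break, where the telomeric density from 100 to 200 kb was 150 ± 22.3 junctions per Mb per 1000 of a library (SD, n = 3).

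The decay along the centromeric side, free of partner break and switch regions from 0.2 to 50 Mb, was not told apart between the baits. Fitted as a power law of distance, its exponent was 0.875, 0.934 and 1.268 in IgH replicates 19, 21 and 23, on 16, 15 and 7 junctions. In c-myc replicates 14, 36 and 37 it was 1.06, 1.11 and 1.012, on 65, 89 and 25 junctions. The means, 1.03 ± 0.212 (SD, n = 3) and 1.06 ± 0.0490 (SD, n = 3), differed by -0.035 (exact permutation p = 0.9, adjusted p = 0.9). An exponent of 1 means that the density falls in inverse proportion to distance. The difference was -0.227 when fitted from 1 to 50 Mb and -0.196 from 0.2 to 20 Mb, with overlap in both (exact permutation p = 0.3 in each). Without IgH replicate 23 it was -0.156, without overlap. So few IgH junctions limit the precision, and the IgH exponents alone spanned more than the difference of -0.035.

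The mean level at a given distance was lower with the IgH bait in most ranges of that side. From 0.2 to 1 Mb the centromeric density was 6.66 ± 3.30 junctions per Mb per 1000 of a library with the IgH bait and 12.3 ± 3.59 with the c-myc bait (SD, n = 3 each). The libraries overlapped in this range, with IgH replicate 23 at 10.4 on 4 junctions and c-myc replicate 14 at 8.14. From 1 to 5 Mb it was 0.918 ± 0.411 and 2.07 ± 0.335 (SD, n = 3 each). From 5 to 20 Mb the densities were within 1 SD, at 0.225 ± 0.116 and 0.195 ± 0.103 (SD, n = 3 each). From 20 to 50 Mb they were 0.0886 ± 0.0191 with the IgH bait, on 7 junctions, and 0.209 ± 0.0947 with the c-myc bait (SD, n = 3 each). On the telomeric side, 0.2 to 1 Mb held 2.83 ± 2.47 with the IgH bait and 12.5 ± 2.11 with the c-myc bait (SD, n = 3 each), while 1 to 5 Mb held 1.30 ± 1.13 and 0.656 ± 0.448 (SD, n = 3 each). IgH replicate 23 had 0 junctions in either of these telomeric ranges.

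**Figure D3:**
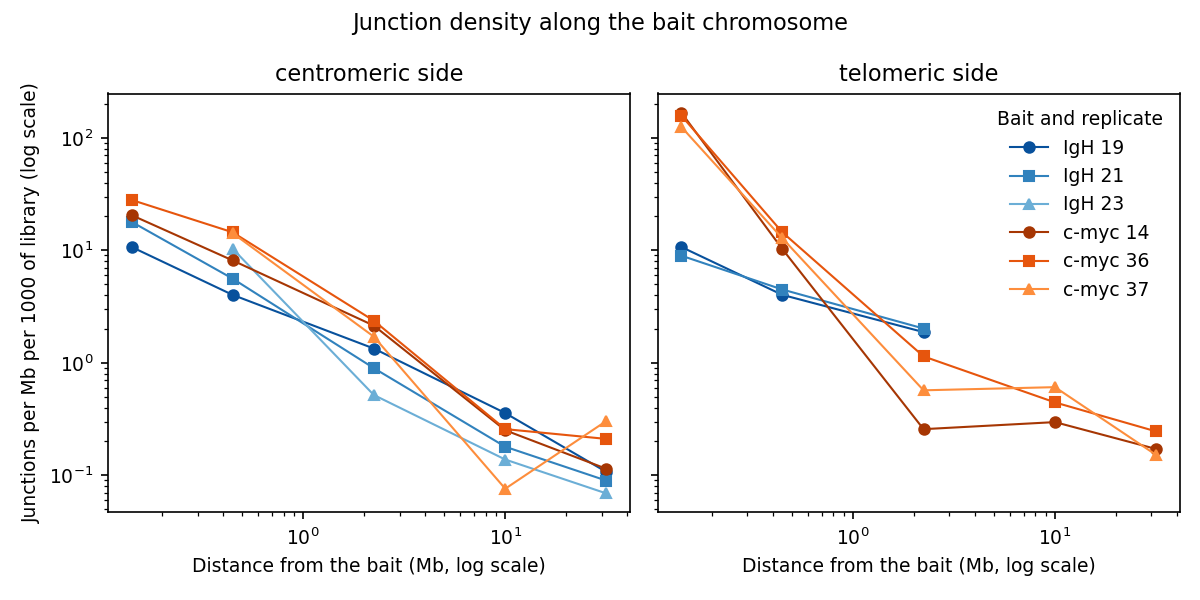
Junctions per Mb per 1000 of a library (log scale) against distance from the bait in Mb (log scale), for the centromeric and the telomeric side, 1 line per B-cell library. Ranges with 0 junctions have no point. The c-myc libraries start at 125 to 168 on the telomeric side from 100 to 200 kb, where the outer flank of their partner break lies.

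The centromeric share within 5 Mb was higher with the IgH bait. Outside both windows, 58.1%, 54.8% and 86.4% of those junctions lay centromeric of the IgH bait, and 25.2%, 35.3% and 39.4% lay centromeric of the c-myc bait. The groups did not overlap (66.4% ± 17.3 and 33.3% ± 7.30, SD, n = 3 each, exact permutation p = 0.1, adjusted p = 0.156). IgH replicate 23, on its own flow cell, was the highest. The 8.15 kb stretch moves part of the IgH flank past the 10 kb window: with distances from its edge, an alternative chosen after seeing the data, the IgH mean was 57.1%. The difference sat near the breaks: from 0.2 to 5 Mb, without switch regions, the IgH bait had 22 centromeric and 23 telomeric junctions and the c-myc bait 120 and 84. Telomeric of the c-myc bait, around its partner break, 172 junctions lay at 10 to 100 kb and 105 at 100 to 200 kb. The Wilson intervals of IgH replicates 19 and 21 included equal sides, at 47.6 to 68.0% and 46.4 to 63.0%.

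Orientation within 5 Mb also differed by bait on the centromeric side. Leaving switch regions out, + strand junctions from 10 kb to 5 Mb centromeric numbered 9 of 36, 15 of 47 and 4 of 18 in IgH replicates 19, 21 and 23. In c-myc replicates 14, 36 and 37 they numbered 40 of 57, 55 of 83 and 17 of 26. Summed, this was 27.7% (Wilson interval 19.9 to 37.1%) with the IgH bait and 67.5% (60.02 to 74.1%) with the c-myc bait, the opposite majority. Over the whole centromeric side, switch regions included, the means were 46.7% ± 4.98 (SD, n = 3) and 63.8% ± 5.46 (SD, n = 3), a gap tested at exact permutation p = 0.1 (adjusted p = 0.156). The IgH excess of - strand preys lay near the break: counted from the edge of the 8.15 kb stretch the means were 59.6% and 63.8% with overlapping libraries (exact permutation p = 0.5). Narrowing the windows to 5 kb moved the difference from -17.0 to -31.4 points, and widening them to 20 kb moved it to -6.32, with overlapping libraries. Beyond 0.2 Mb, 12 of 22 IgH junctions and 88 of 120 c-myc junctions on this side were on the + strand.

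At c-myc the preference for the + strand ended within a few Mb. Centromeric and telomeric of the c-myc bait, 67.5% and 76.5% of junctions from 10 kb to 5 Mb were on the + strand (112 of 166 and 276 of 361). Beyond 5 Mb these shares were 52.2% and 47.5% (35 of 67 and 38 of 80). From 1 to 5 Mb telomeric only 4 of 18 were on the + strand. With the IgH bait the telomeric + strand share over all distances outside the windows was 55.6%, 72.1% and 42.9%, the last on 7 junctions, against 72.1%, 70.8% and 69.2% with the c-myc bait. The groups overlapped there (difference of -13.9 points, exact permutation p = 0.4, adjusted p = 0.509), and this difference was -21.5 points without IgH replicate 21 and -6.87 without IgH replicate 23. On other chromosomes preys were split about evenly between the strands, at 53.3% ± 5.63 (SD, n = 3) and 50.7% ± 2.31 (SD, n = 3) on the + strand (two-sided exact permutation p = 0.7, adjusted p = 0.754).

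**Figure D4:**
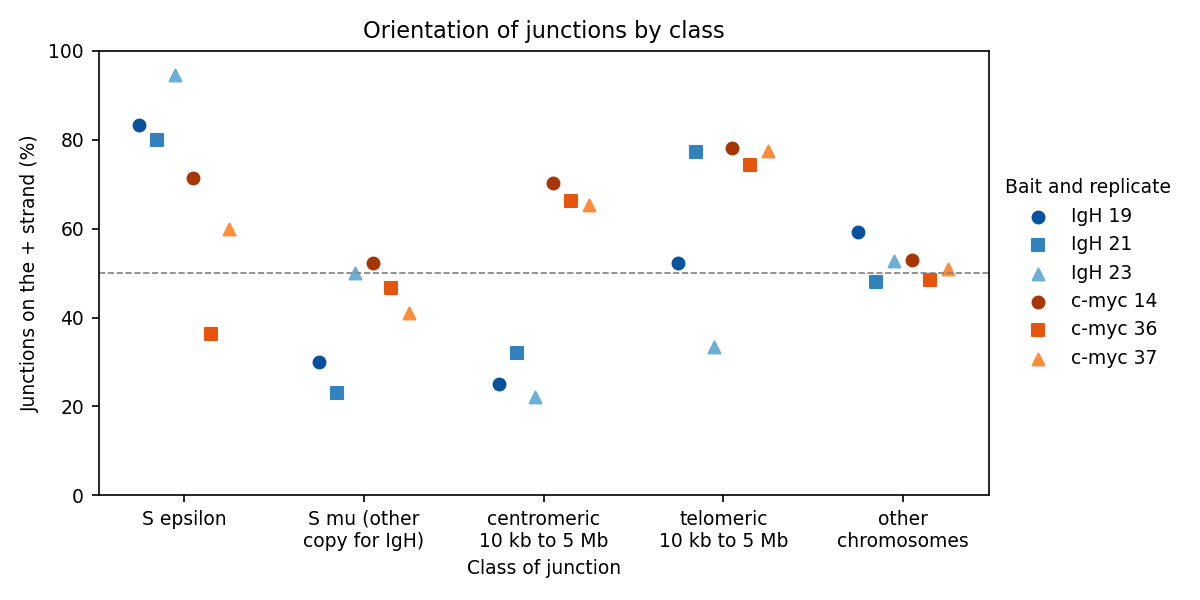
Percent of junctions on the + strand for S epsilon, for S mu (with the IgH bait, junctions labelled trans), for the centromeric and telomeric side from 10 kb to 5 Mb without switch regions, and for other chromosomes, 1 point per B-cell library. Centromeric junctions are at 22.2 to 31.9% with the IgH bait and 65.4 to 70.2% with the c-myc bait, and the dashed line marks equal numbers on both strands.

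Switch regions were reached by both baits, S epsilon, S mu and S gamma 1 by both and S gamma 3 by the IgH bait alone. Of junctions outside both windows, 15.9%, 30% and 27.4% carried a switch region label with the IgH bait and 7.71%, 15.6% and 22.5% with the c-myc bait, with overlap (24.4% ± 7.51 and 15.3% ± 7.39, SD, n = 3 each, exact permutation p = 0.2, adjusted p = 0.25 over 5 switch tests). For IgH this total leaves out S mu and S gamma 1, which its windows cover. For c-myc it includes them, so that single regions are the fairer comparison. Labels of these regions were rare or at 0 in the other cell types: 6 of 266 junctions outside the windows in IgH T cells and 0 of 849 in c-myc fibroblasts.

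S epsilon, the switch region for IgE, was the one region outside the windows that both baits reached in every library. It took 12, 25 and 18 junctions with the IgH bait and 14, 11 and 5 with the c-myc bait, or 7.06%, 11.4% and 21.4% against 2.35%, 1.24% and 1.94% of junctions outside the windows. All IgH libraries were above all c-myc libraries (13.3% ± 7.37 and 1.84% ± 0.558, SD, n = 3 each, exact permutation p = 0.1, adjusted p = 0.167). The difference of 11.4 points was 7.37 without IgH replicate 23. The junctions lay at chr12:114512393-114515149 with the IgH bait and chr12:114513256-114515101 with the c-myc bait, with medians at 114514508 and 114514076. They were scattered, at 55 distinct positions for 55 junctions and 30 for 30.

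Preys in S epsilon were on the + strand in 10 of 12, 20 of 25 and 17 of 18 junctions with the IgH bait. With the c-myc bait they were so in 10 of 14, 4 of 11 and 3 of 5. S epsilon lies on the centromeric side, at -62.5 kb from the IgH bait, and a + strand prey there points back toward the bait. The IgH libraries had the larger shares (85.9% ± 7.56 and 55.9% ± 17.9, SD, n = 3 each; exact permutation p = 0.1, adjusted p = 0.167). For the c-myc bait, on another chromosome, no such geometry holds.

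S gamma 3, the switch region for IgG3, was found with the IgH bait alone. It took 13, 39 and 3 junctions, or 7.65%, 17.7% and 3.57% of those outside the windows, within chr12:114599736-114603625 between the bait and the partner break. With the c-myc bait it took 0 of 597, 886 and 258 junctions outside the windows, which allows up to 0.503%, 0.339% and 1.16% (exact permutation p = 0.1, adjusted p = 0.167). The mean of 9.65% with the IgH bait was 5.61% without replicate 21. In IgH T cells, which carry the same cassettes, it took 1 junction. S gamma 2b took 2, 2 and 1 junctions with the IgH bait, all on the - strand, within chr12:114547834-114552158, and 0 with the c-myc bait.

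S alpha, the switch region for IgA, held 0, 2 and 1 junctions with the c-myc bait and 0 of 2531 with the IgH bait, which allows up to 0.119% (exact permutation p = 0.4, adjusted p = 0.4). S gamma 2a held 1 junction, in IgH replicate 23. The kappa light chain locus on chromosome 6 was reached by the c-myc bait alone, with 1 junction each at Jk2, Jk3 and the 5' edge of Ck. Counts this small do not tell the baits apart.

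**Figure D5:**
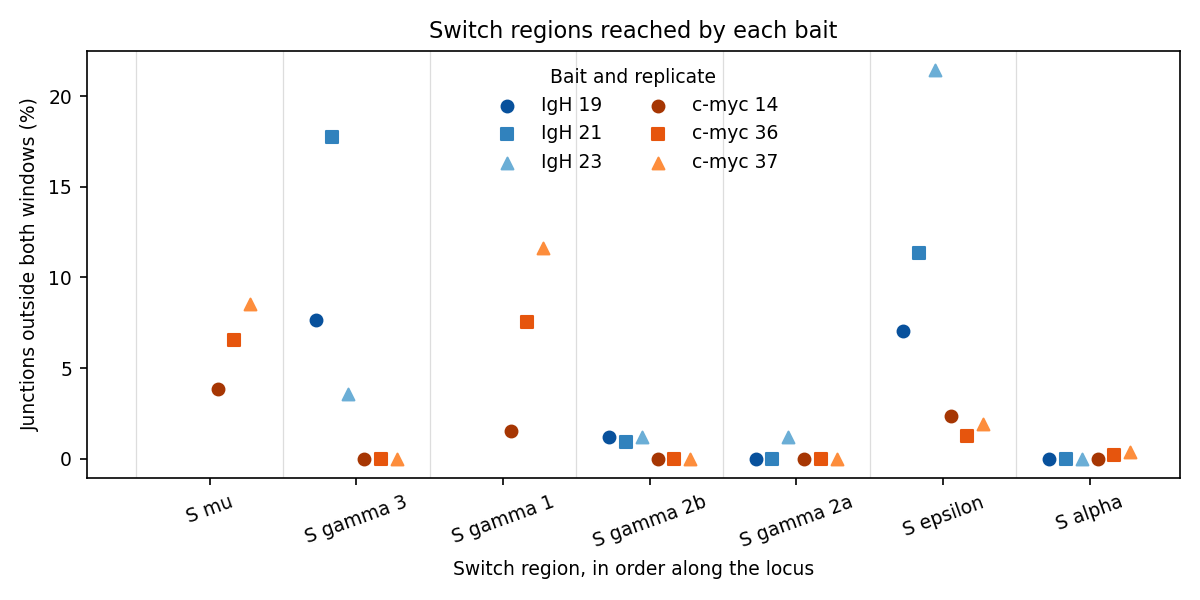
Junctions in each switch region as percent of junctions outside both windows (y axis), in the order of the regions along the locus (x axis), 1 point per B-cell library. IgH points are not drawn for S mu and S gamma 1, since the IgH windows cover them, and S gamma 3 and S epsilon are higher in all 3 IgH libraries than in any c-myc library.

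S mu and S gamma 1 lie in the IgH windows, and their junctions were counted there by label. Among junctions labelled S mu or trans S mu, those labelled S gamma 1 in the 8.15 kb stretch and those labelled S epsilon, the c-myc libraries held 23, 58 and 22 in S mu, 9, 66 and 30 in S gamma 1 and 14, 11 and 5 in S epsilon. The IgH libraries held 10, 13 and 6 labelled trans S mu, 5, 12 and 4 with the S gamma 1 label in that stretch, and 12, 25 and 18 in S epsilon. The S gamma 1 counts of both baits leave out the bases right next to the IgH bait peak. Another 4, 1 and 0 IgH junctions labelled S mu, within chr12:114660727-114660976 and outside the S mu stretch, were left out. S epsilon thus made up 52.9% ± 10.2 (SD, n = 3) of the 3 with the IgH bait and 15.8% ± 12.7 (SD, n = 3) with the c-myc bait. S mu made up 28.2% ± 8.02 (SD, n = 3) and 43.9% ± 5.75 (SD, n = 3), and S gamma 1 18.9% ± 4.87 (SD, n = 3) and 40.4% ± 18.1 (SD, n = 3). The order of the 3 regions in c-myc replicate 14 differed from that in replicates 36 and 37, with S gamma 1 last. Since an IgH junction of S mu or S gamma 1 can be read only off the bait allele, if the stretches are absent from it, the counts cover fewer target copies there than at S epsilon, and no test was run.

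Within S mu the c-myc junctions spread over chr12:114661772-114664538 with 48 of 103 on the + strand. The trans S mu junctions of the IgH bait lay inside that range, within chr12:114662733-114663993, with 9 of 29 on the + strand. In S gamma 1, 44 of 106 c-myc junctions were on the + strand, within chr12:114572039-114577035. In the same stretch, short of the bases right next to the bait peak, 1 of 21 IgH junctions with that label was. Of all 26 IgH junctions in the whole stretch, 6 were. The c-myc bait thus had preys on both strands in similar numbers in S mu and S gamma 1, while most IgH junctions there were on the - strand.

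AGCT, the AID hotspot motif printed in capitals above, was far more frequent in switch preys than elsewhere for both baits. It was searched in the first 40 bases of the prey, once per position and strand of a library. It was present in 66.5% ± 19.4 (SD, n = 3) of switch preys with the IgH bait and 69.2% ± 6.31 (SD, n = 3) with the c-myc bait. Of preys on other chromosomes, 16.1% ± 8.39 (SD, n = 3) and 18.3% ± 6.70 (SD, n = 3) held it in the same length. By region, it was present in 79.4% of 68 S mu, 52.9% of 85 S gamma 1 and 75% of 24 S epsilon preys of the c-myc bait. For the IgH bait it was present in 87.5% of 24 trans S mu, 79.5% of 44 S gamma 3 and 72.2% of 54 S epsilon preys, but in 33.3% of 51 S gamma 1 preys, and in 0 of 4 labelled S mu. With the IgH bait the S gamma 1 label also covers the bait edge. Its 114 junctions had their median at the bait peak, 114577038, and 21 lay in the 8.15 kb stretch short of the bases next to that peak. Bait-edge preys are thus among the IgH switch preys above, and the 33.3% does not compare with the 52.9% of the c-myc bait. The match describes the sequence of these regions and not a site of cutting.

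Joining between the loci themselves was nearly all one way. Within 1 Mb of the c-myc bait peak, the IgH bait had 0, 2 and 0 junctions, of 76, 75 and 36 on other chromosomes. Both lay in Myc, which encodes a transcription factor for growth, at 61820561 and 61820565 of chromosome 15, 4 bp apart on the + strand and 1.68 kb from where the c-myc bait lies in the other genotype. The c-myc bait had 49, 145 and 61 junctions within 1 Mb of the IgH bait peak, of 321, 575 and 171 on other chromosomes, and 242 of these 255 carried a switch region label. As a share of all junctions this was 0.0598% ± 0.104 (SD, n = 3) for the IgH bait and 4.57% ± 2.67 (SD, n = 3) for the c-myc bait, without overlap (exact permutation p = 0.1, adjusted p = 0.2 over 4 gene tests). Neither target carries a cassette in the cells of the other bait, and the targets differ in sequence and in switch regions, so that these shares compare different pairs of breaks.

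The genes reached on other chromosomes were mostly hit once. A gene label was carried by 52.0% ± 5.19 (SD, n = 3) of other-chromosome junctions with the IgH bait and 56.1% ± 6.65 (SD, n = 3) with the c-myc bait, 3 Mb around the other locus left out (exact permutation p = 0.5, adjusted p = 0.5). Each 100 such junctions named 97.6 ± 2.38 (SD, n = 3) and 95.5 ± 2.95 (SD, n = 3) different genes (exact permutation p = 0.4, adjusted p = 0.5). Apart from antigen receptor labels, the IgH bait reached 114 labels outside its windows and the c-myc bait 460, of which 11 were shared, or 9.65% of the first list and 2.39% of the second. A single junction stood behind 103 of the IgH labels and 414 of the c-myc labels. At least 2 libraries shared 5 IgH and 26 c-myc labels, and all 3 libraries shared 0 and 6.

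Of labels with at least 6 junctions outside the windows over the 6 libraries, 8 could be compared. All IgH libraries were higher for 2 of the 8 (25%), S epsilon and S gamma 3, and all c-myc libraries for 5 (62.5%), S gamma 1, S mu, Pvt1, Ly6e and D030024E09Rik. The count for c-myc was 3 of 5 without c-myc replicate 36. For S gamma 1 and S mu the order is set by the IgH windows that cover them. Pvt1, Ly6e and D030024E09Rik lie on the chromosome of the c-myc bait. Outside the windows S gamma 3 had IgH junctions alone, and Pvt1, S gamma 1 and S mu had c-myc junctions alone. They reached the minimum through the bait with which they were higher, so that the minimum in part set the counts of 2 and 5. S epsilon and Mmp24 had junctions with both baits. Ly6e and D030024E09Rik also reached it through c-myc junctions alone, 1, 4 and 1 and 2, 5 and 1. With the IgH bait they took 0 of 170, 220 and 84 junctions outside the windows, which allows up to 1.76%, 1.36% and 3.57%. A lower share of these 2 genes with the IgH bait is therefore not shown. Mmp24, a membrane metalloprotease gene on chromosome 2, overlapped, with 1 junction in IgH replicate 23 and 1, 4 and 1 in the c-myc libraries.

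On chromosome 15 the c-myc bait reached its neighbours. Pvt1, the noncoding RNA gene just telomeric of Myc that holds the partner break, took 112, 82 and 26 junctions outside the windows, 179 of 220 on the + strand. D030024E09Rik, centromeric at -0.253 Mb from the bait, took 2, 5 and 1 junctions, all 8 on the + strand. Ly6e, a lymphocyte surface antigen gene 12.97 Mb telomeric, took 1, 4 and 1. Trappc9, 10.8 Mb telomeric, took 4, 1 and 0 junctions and Kcnq3, a potassium channel gene 4.11 Mb telomeric, took 2, 1 and 0, all of both on the - strand. Of the 13 listed chromosome 15 neighbours, 6 were reached by the c-myc bait, with 8 junctions in the 5 other than Pvt1, among them D15Ertd621e with 3 and Adcy8, an adenylate cyclase gene, with 2. The IgH bait reached 0 of the 13.

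On chromosome 12 the IgH bait reached 5 of 17 listed neighbours, with 8 junctions, or 1.69% of those outside its windows. Ptprn2, a phosphatase family gene 3.51 Mb telomeric, took 2, 1 and 0. Mta1, a chromatin remodelling gene at -0.222 Mb from the bait, took 1, 1 and 0, and Brf1, Jag2 and Pacs2 took 1 each. The c-myc bait reached 0 of these 17. Ppp2r5c, a regulatory subunit gene of a protein phosphatase at -2.83 Mb, took 1, 0 and 1 with the IgH bait.

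The AID off-target list of 30 genes held more c-myc junctions, through Pvt1. Outside the windows and the IgH locus it took 1.11% ± 1.92 (SD, n = 3) with the IgH bait and 16.1% ± 4.96 (SD, n = 3) with the c-myc bait, without overlap (exact permutation p = 0.1, adjusted p = 0.2). Pvt1 alone gave 220 of the 239 c-myc junctions, and Myc gave 2 of the 3 IgH junctions. Pvt1 lies around the c-myc partner break, and Myc lies in the c-myc bait window and cannot count there. Without both genes, an alternative chosen after seeing the data, the shares were 0.370% and 1.21% with overlap (exact permutation p = 0.2). The remaining junctions numbered 0, 1 and 0 with the IgH bait and 7, 10 and 2 with the c-myc bait.

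Those 19 c-myc junctions lay in 6 genes. Ly6e had 6, Cd83, a marker of activated B cells, had 4 in replicates 14 and 36, and Pim1, a kinase gene, had 3 in replicates 14 and 37. Il4ra, the IL-4 receptor alpha chain, had 3, all in replicate 36. Irf4, a transcription factor of B-cell activation, had 2 in replicate 14, and Gas5, a noncoding host gene of small nucleolar RNAs, had 1. Cd83, Il4ra and Irf4 are also on the list of 18 genes induced by CD40 or IL-4. That list held 9 of 1741 c-myc junctions outside the windows (0.517%), all in these 3 genes. With the IgH bait it held 1 of 474 (0.211%), in Batf, and 1 junction does not tell the baits apart. The single IgH junction of the off-target list was in Clec2d. The lists of 10 T-cell and 6 fibroblast genes held 0 junctions with either bait. Most labels reached held a single junction, so that 0 in lists this short does not bear on the cell type.

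Few other genes recurred. With the IgH bait, Cyth1 and Epb4.1l5 took 2 junctions each, in 2 libraries each, and the 2 in Epb4.1l5 were at 1 position and strand, 121509604 of chromosome 1, in replicates 19 and 21 of the same flow cell. With the c-myc bait, Csmd3 and Epb4.1 took 3 each and Aff3, a transcription elongation factor gene, 3. Identical positions in different libraries occurred there too: 131604830 of chromosome 4, in Epb4.1, in replicates 14 and 36, and 102962731 of chromosome 11, in Plcd3, in replicates 36 and 37. Beside S epsilon, Mmp24 and Aff3, both baits reached Adamts2, Apbb1, Astn2, Cacna1a, Cadm2, Cdh10, Fermt2, Odz2 and Rad51l1, with 1 IgH junction in each and 1 or 2 c-myc junctions.

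Between chromosomes, the share of other-chromosome junctions differed on 1 of 18 (5.56%) by limma. Chromosome 13 held 0, 0 and 0 junctions with the IgH bait and 12, 16 and 10 with the c-myc bait (limma, adjusted p = 0.00855). For the IgH bait this is 0 of 179, which allows a share of up to 1.68%, against 38 of 778, or 4.88%, for the c-myc bait. Cd83 and Irf4 are on this chromosome and gave 6 of the 38. The p rests on IgH libraries all at 0, and with a pseudocount of 1 in place of 0.5 limma called 0 chromosomes, with 2 at an unadjusted p under 0.05.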

How the data were processed

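The 13 deposited tables list 1 prey alignment per line, with the alignment score that the authors' aligner gave, position, strand, read and gene label, per the file headers. The build is mm9, per the submitters' processing notes. For the aligner and the filters the sources used here give nothing, and no mm9 genome was used. The deposited score was not used to filter. Positions are counted from 1.

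Bait and partner peaks were the 2 highest 5 kb windows of the bait chromosome with 20 kb or more between them, from the 3 libraries of a bait weighted equally, and windows reached 10 kb to either side. Lines were counted as deposited. Shares were compared over libraries by two-sided exact permutation tests with Benjamini-Hochberg adjustment, and chromosome shares by limma 3.58.1 in R 4.3.3 (log2, pseudocount 0.5, at least 10 junctions), the rest in Python 3.11.15. The exponent estimate was tested on simulated data. Intervals are Wilson intervals at 95%, and limits for 0 come from 3 counts. Both cover counting error only.

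Named genes were all antigen receptor labels and members of the AID off-target list with a junction, the 10 other labels per bait with the most junctions in at least 2 libraries, and labels reached by both baits. Members and lists were chosen with earlier results of these data known. The labels do not tie replicates to separate mice, so that p-values measure the spread between these libraries.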

Additional observations from a re-analysis of the deposited data

How the results depend on the processing

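No paired analysis was possible because the IgH and c-myc B-cell libraries share no replicate number. No exact permutation test could pass 0.05, so that alternatives to those were read for direction and size. Differences are IgH minus c-myc. The distance exponent turned from -0.035 to 0.046 with preys aligned over at least 50 bases, was -0.227 from 1 to 50 Mb and -0.196 from 0.2 to 20 Mb, and was -0.156 to 0.0403 without single libraries. The + strand share on other chromosomes turned from 2.60 to -1.37 points with such preys, and was -0.339 to 5.27 without single libraries. The share from 1 to 10 Mb turned from -2.94 to 3.36 points without switch-labelled junctions, an alternative chosen after seeing the data, and was -5.84 to 0.0552 without single libraries. The cause was not tested. The other 20 shares kept their direction under every alternative run. Without single libraries the difference was 7.80 to 12.4 points for the share on the bait chromosome, 15.6 to 18.6 for the partner window, -10.5 to -4.49 for the bait window, 7.37 to 14.6 for S epsilon, 5.61 to 12.7 for S gamma 3 and -5.21 to -1.69 for the share over 3 Mb away. The S epsilon difference was 7.23 with windows of 5 kb. The number of labels higher with the c-myc bait was 3 to 6 without single libraries, and limma called 0 chromosomes with a pseudocount of 1. The IgH libraries held 84 to 220 junctions outside both windows, which limits what can be told apart there.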
